A study of Mus musculus and Homo sapiens with 6 samples.

Results

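Accessible chromatin was examined at 10 genes of the Hippo pathway in NMuMG, a line of epithelial cells from the mammary gland of the mouse. The 10 genes, out of 21900 protein-coding genes placed on chromosomes, were taken from a list of target and feedback genes: Ccn1, Ccn2, Ankrd1, Axl, Amotl1, Amotl2, Ptpn14, Ajuba, Lats1 and Lats2. Every peak that overlapped one of these genes or the 50 kb to either side was included. Merged over the libraries, these peaks formed 117 regions out of 55702 in the genome.

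The data are ATAC-seq libraries, in which the Tn5 transposase inserts adapters into open DNA, made from 25000, 50000, 75000 and 100000 NMuMG cells, with 1 library at each number. All 4 libraries came from the same line below passage 10, grown in serum-containing medium and marked as 0 h, with no treatment named, so that the number of cells is the single labelled difference. The purpose was to adjust the assay, and with 1 library per number no difference between cell numbers has a replicate error or a test. The series also has 2 human samples, of the breast cancer line MDA-MB-231 with GATA3, which are not analysed here. The 4 lists held 38878 peaks at 25000 cells, 43832 at 50000, 41509 at 75000 and 45530 at 100000, each with a whole-number score of 8 or above given by the authors, and the read depth behind them is unknown. Scores were ranked within their own list only: a score percentile is the share of that list's peaks with a lower score, with ties at their midpoint. A region's score in a list is that of its highest peak there. Of 10 epithelial marker genes, 7 had a peak at their start in all 4 libraries, among them Cdh1, Krt8 and Jup. Epcam, Esrp1 and Grhl2 had none. The counts were 1 of 6 for fibroblast, 1 of 5 for blood and 0 of 4 for endothelial markers, compared with 44.9% of all protein-coding genes. A start was listed for 7 of the 10 epithelial, 2 of the 6 fibroblast, 3 of the 5 blood and 2 of the 4 endothelial markers. The others, among them Cdh1, Esrp1 and Grhl2, were judged by a peak at either annotated end.

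In the Hippo pathway, a kinase cascade ends in LATS1 and LATS2, which phosphorylate the co-activators YAP and TAZ and keep them out of the nucleus. When the kinases are inactive, YAP and TAZ enter the nucleus and act on DNA through the TEAD transcription factors. Their best known targets include the secreted matrix proteins encoded by Ccn1 and Ccn2 (also known as Cyr61 and Ctgf) and the ankyrin repeat protein encoded by Ankrd1. Several other targets encode proteins that hold YAP and TAZ back, among them LATS2, the angiomotin-like protein AMOTL2 and the phosphatase PTPN14, so that the pathway feeds back on itself. The TEAD factors recognise a short motif with the letters GGAATG.

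Promoter sequences show where these letters lie at the genes that follow. RefSeq promoter windows on GRCm38.p6, the assembly that mm10 names, were found for 9 of the 10 genes; Ccn2 was not matched. They run from 250 bases before a listed start to 50 bases after it, and Lats2 had 2 of them. The letters GGAATG, searched on both strands, were found in 7 of the 10 windows, those of Ccn1, Ankrd1, Amotl2, Ptpn14, Ajuba, Axl and Lats2, compared with 13.6% of the 21263 windows of all protein-coding genes. Ankrd1 and Ajuba had 2 matches each, compared with 1.14% of all windows with at least 2. Each match is shown here with 10 bases to either side, 5′ to 3′ on the strand that reads GGAATG, with the match in capitals:
Ccn1, chr3:145650073-145650098, plus strand: aaacatctcaGGAATGttggttggcg
Ankrd1, chr19:36120039-36120064, minus strand: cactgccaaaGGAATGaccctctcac
Ankrd1, chr19:36119952-36119977, minus strand: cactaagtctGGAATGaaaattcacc
Amotl2, chr9:102717729-102717754, minus strand: tgctatgccaGGAATGtgagagtttc
Ptpn14, chr1:189728112-189728137, minus strand: gggcgggccaGGAATGcgtccgggga
Lats2, chr14:57746104-57746129, minus strand: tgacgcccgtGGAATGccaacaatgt
Ajuba, chr14:54577832-54577857, plus strand: ggggcactgtGGAATGtatccatcaa
Ajuba, chr14:54577810-54577835, plus strand: gtttacagttGGAATGcgcggagggg
Axl, chr7:25788951-25788976, minus strand: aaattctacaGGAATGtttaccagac

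The first base of each match along the gene's strand was at -103 bp from the start in Ccn1, at -210 and -123 bp in Ankrd1, at -65 bp in Amotl2, at -146 bp in Ptpn14, at -186 and -164 bp in Ajuba, at -233 bp in Axl and at 4 bp in Lats2, negative values being upstream. All of these matches lay under a listed peak in all 4 libraries except that of Axl, which was covered in the 3 libraries from 50000 cells up and lay outside the peak at chr7:25788351-25788900 of the 25000-cell library. No match was found in the windows of Amotl1 and Lats1 or at the second start of Lats2.

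**Figure D1:**
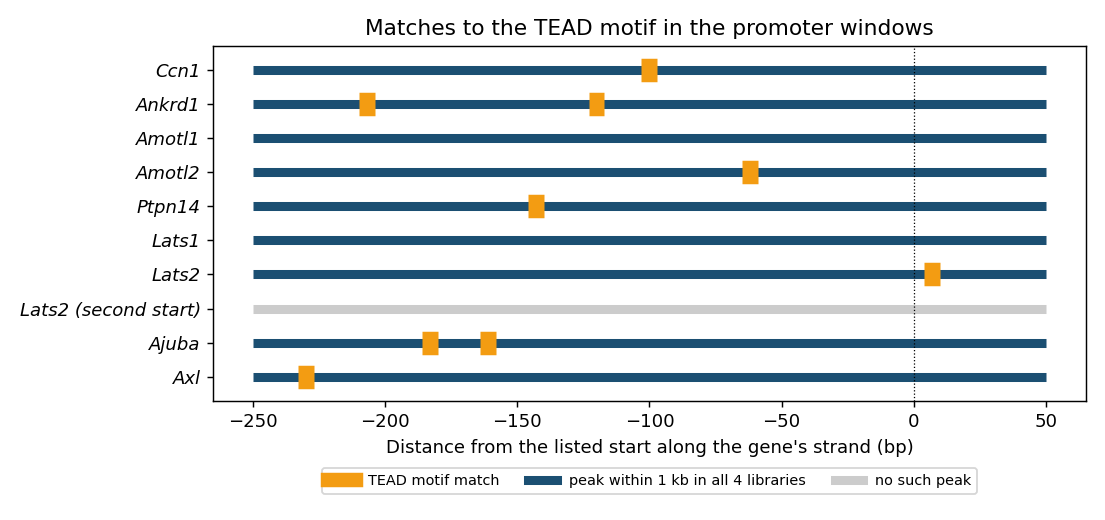
Matches to the TEAD motif (orange) in the RefSeq promoter windows, with the distance from the listed start along the gene's strand in bp on the x axis and 1 row per listed start. Dark rows have a peak within 1 kb of the start in all 4 libraries and the grey row does not. Matches lay from -233 to 4 bp, in 7 of the 10 windows.

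The 250 bases before the start of Ankrd1 carried a pair of matches, and those of Ccn1 carried 1, which reads CATTCC on the gene's strand. Both are shown on the gene's strand with the matches in capitals, beside the promoter of Lats1, a kinase gene whose window had none:
Ankrd1 promoter, chr19:36119845-36120094, minus strand: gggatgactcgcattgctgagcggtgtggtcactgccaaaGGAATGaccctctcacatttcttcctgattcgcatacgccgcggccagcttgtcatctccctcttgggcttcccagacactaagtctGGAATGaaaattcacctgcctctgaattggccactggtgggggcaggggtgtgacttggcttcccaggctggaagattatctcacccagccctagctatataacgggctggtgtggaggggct
Ccn1 promoter, chr3:145649986-145650235, minus strand: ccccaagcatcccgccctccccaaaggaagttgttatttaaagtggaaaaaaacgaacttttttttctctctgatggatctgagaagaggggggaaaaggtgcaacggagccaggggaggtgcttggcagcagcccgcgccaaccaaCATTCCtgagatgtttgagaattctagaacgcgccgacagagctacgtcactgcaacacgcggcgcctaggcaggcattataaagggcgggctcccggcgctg
Lats1 promoter, chr10:7680959-7681208, plus strand: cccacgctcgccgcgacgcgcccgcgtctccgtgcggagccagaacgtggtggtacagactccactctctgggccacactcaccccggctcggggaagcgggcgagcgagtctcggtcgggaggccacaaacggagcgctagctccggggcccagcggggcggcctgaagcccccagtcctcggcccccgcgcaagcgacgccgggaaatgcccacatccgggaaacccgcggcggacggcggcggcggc

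Base composition differed widely among the 10 windows, with a GC content from 42.7% at the second start of Lats2 and 54.0% at Ajuba to 78.3% at Ptpn14. Their median was 60.8%, compared with 56.3% for all protein-coding windows and 62.3% for windows with a start peak in all 4 libraries. The number of CpG dinucleotides was 6 at Axl and 7 at Ankrd1, compared with 40 at Ptpn14 and 42 at Lats1. The TEAD letters were in 0 of 1 window of these genes below 45% GC, compared with 15.6% of all windows there, and in 2 of 2 from 45% to 55%, compared with 17.8%. From 55% to 65% they were in 2 of 3, compared with 12.9%, and above that in 3 of 4, compared with 8.27%. None of the 10 windows held the AP-1 letters TGANTCA, compared with 6.99% of all windows, or the CRE letters TGACGTCA, compared with 2.23%. Such matches describe the letters and are not evidence of binding, and the AP-1 and CRE counts say only that these letters are not in these windows.

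The same letters were counted in other genes of the pathway. The share of all protein-coding windows with the TEAD letters, 13.6%, stands beside each of these counts. Of 14 windows of other YAP and TAZ target genes, 1 held the letters (7.14%), that of Crim1. Of 8 windows of the co-activator and TEAD factor genes, 6 held them, at Yap1, Wwtr1, Tead3 and Vgll4, and of 16 windows of upstream and core genes, 5 did. These genes are described further on.

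All 10 genes had a peak within 1 kb of their start in all 4 libraries, compared with 44.9% of protein-coding genes. For Ccn2, which has no listed start here, either annotated end was used, as for all other genes without a listed start. Amotl1, whose annotated extent runs on beyond its listed start, had its peak at the listed start. By the percentiles of their start regions the genes are described as 5 with higher and 5 with lower values, a division made at the widest gap in these same values. In Ankrd1, Ptpn14, Amotl2, Ccn2 and Ccn1 the mean percentile over the 4 libraries was 92.7 to 98.8, and in Axl, Lats1, Lats2, Amotl1 and Ajuba it was 42.9 to 66.0. The lowest percentile in any library among the first 5 was 90.1, for Ccn1 at 75000 cells, and the highest among the other 5 was 73.4, for Lats2 at 100000 cells.

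**Figure D2:**
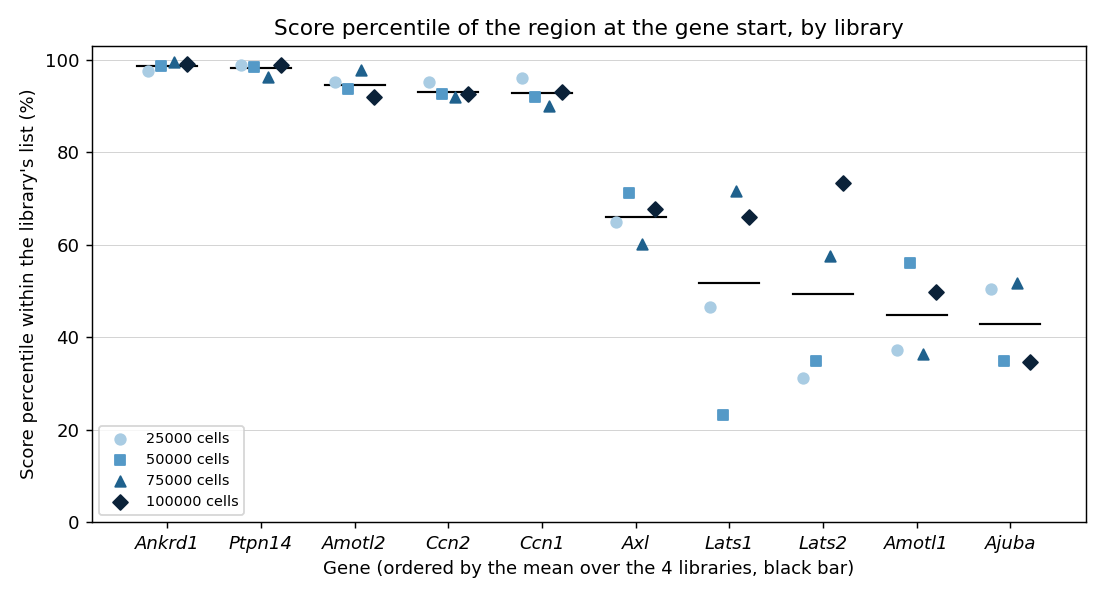
Score percentile of the region at the start of each gene within its library's list (y axis, in percent), with 1 symbol per library and the mean over the 4 libraries as a black bar. Ankrd1, Ptpn14, Amotl2, Ccn2 and Ccn1 lie between 90.1 and 99.6 in every library and the other 5 genes between 23.1 and 73.4.

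Set among the 9768 protein-coding genes with a start region found in all 4 libraries, Ankrd1 was at the 96.5 percentile, Ptpn14 at 94.7, Amotl2 at 84.9, Ccn2 at 80.7 and Ccn1 at 79.7. Axl was at the 29.0, Lats1 at the 13.4, Lats2 at the 11.2, Amotl1 at the 8.26 and Ajuba at the 7.02 percentile. The median over the 10 genes was a mean percentile of 79.4, compared with 79.2 over all such genes, and 5 of the 10 genes were above 79.2. Between neighbours in this order the libraries did not keep the same ranking. Ankrd1 was first in 3 libraries and Ptpn14 at 25000 cells. Ranges over the libraries overlapped between each gene and the next in the upper group, and also among Lats1, Lats2, Amotl1 and Ajuba. The range of Axl, 60.1 to 71.3, lay above those of Amotl1 and Ajuba but overlapped those of both kinase genes.

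The surroundings of the 10 genes held many regions. Their median was 8.27 regions per 100 kb of window, compared with 3.51 over all protein-coding genes and 5.26 over the 9836 with a start peak in all 4 libraries. Counting only regions with a peak in all 4 libraries, the medians were 4.68 for the 10 genes, 1.72 for all protein-coding genes and 2.85 for those with a start peak. Amotl2 had 8.60 such regions per 100 kb, Axl 7.55, Ccn1 6.80, Ajuba 5.45, Ccn2 4.84, Amotl1 4.53, Ptpn14 4.02, Lats1 2.96, Ankrd1 2.78 and Lats2 1.92. Among genes with a start peak, these values were at the 95.3 percentile for Amotl2 and the 31.3 percentile for Lats2, and 8 of the 10 genes were above the median. Each of the 10 windows held at least 1 region in all 4 libraries, which follows from the start regions and adds nothing to them. Over all protein-coding genes, with or without a start peak, this share was 74.7%.

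**Figure D3:**
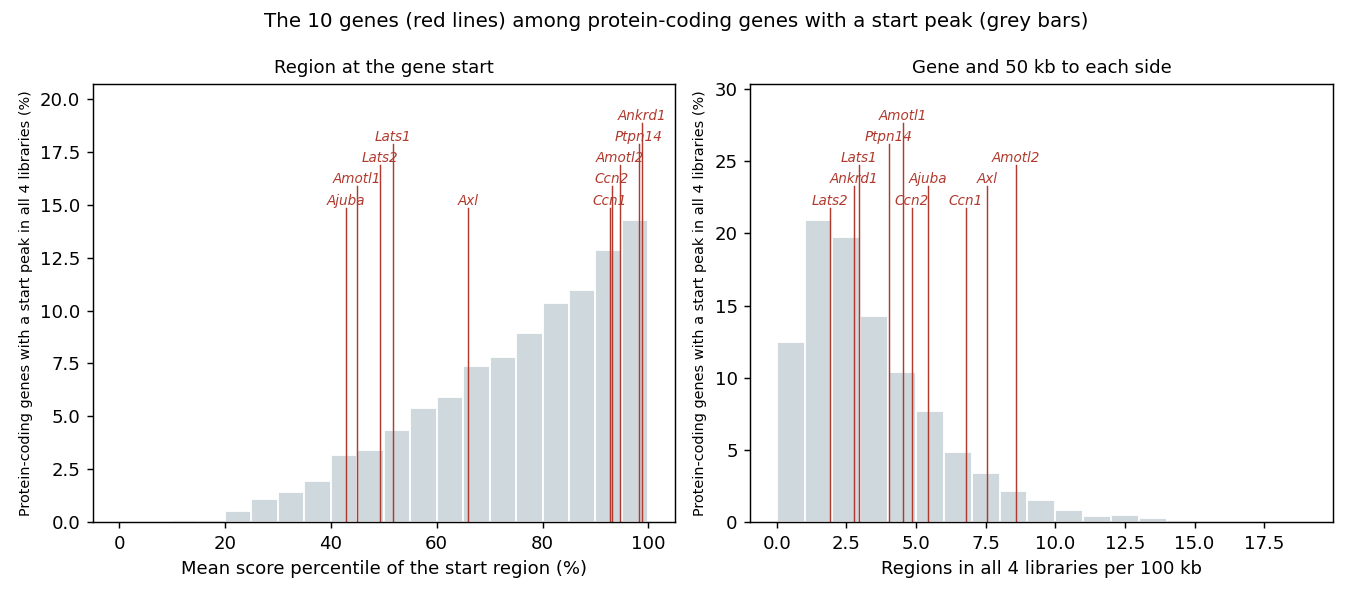
The 10 genes (red lines) among protein-coding genes with a start peak in all 4 libraries (grey bars, percent of genes on the y axis). The left panel shows the mean score percentile of the start region, where the 10 genes fall at 42.9 to 66.0 and at 92.7 to 98.8, and the right panel the number of regions in all 4 libraries per 100 kb of the gene and 50 kb to each side, from 1.92 for Lats2 to 8.60 for Amotl2.

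A part of these regions belonged to neighbours. Of the 117 regions, 11 lay at a start of the 10 genes themselves (either annotated end for Ccn2), 27 elsewhere inside them, 14 at the listed start of another gene, 22 inside another gene and 43 between genes. Leaving out every region at any listed gene start, the 10 genes had a median of 3.17 regions in all 4 libraries per 100 kb, compared with 0.798 for all protein-coding genes and 1.25 for those with a start peak. By this count Amotl2 had 7.74, Ccn1 4.85, Axl 4.53, Ccn2 3.87, Amotl1 3.62, Ajuba 2.72, Ptpn14 2.42, Lats1 1.48, Lats2 1.28 and Ankrd1 0.927, and 9 of the 10 were above the median of genes with a start peak.

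**Figure D4:**
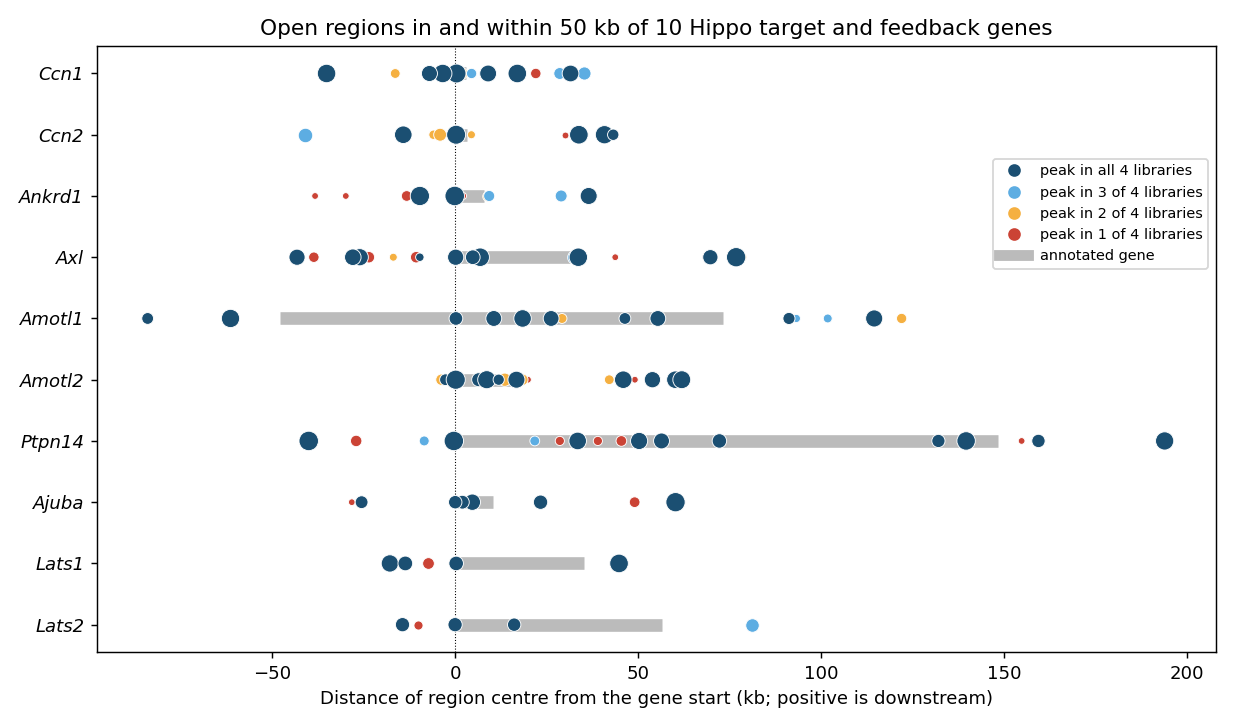
Regions in and within 50 kb of the 10 genes, with the distance of each region's centre from the gene start in kb on the x axis (positive is downstream; for Ccn2, which has no listed strand, coordinates increase to the right from its lower annotated end). Colours give the number of libraries with a peak, larger circles stand for higher mean score percentiles, and grey bars for the annotated genes. Amotl1, Amotl2, Ptpn14 and Axl have 10 regions each in all 4 libraries, and Lats2 has 3.

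Of the 117 regions, 68 had a peak in all 4 libraries (58.1%, 95% Clopper-Pearson interval 48.6 to 67.2), compared with 46.3% of all regions of the genome. By location, this held for 10 of 11 regions at a start of the 10 genes and 12 of 14 at the start of another gene. It held for 18 of 27 elsewhere inside the genes, 11 of 22 inside another gene and 17 of 43 between genes (39.5%). The 46.3% of the genome is not split by location here. Regions of a single library numbered 23 (19.7%, 12.9 to 28.0), compared with 26.2% of all regions. The intervals cover counting error only, and neighbouring regions of a gene are not independent. Sharing rose with the highest score of a region. That score is the maximum over the libraries with a peak, so a part of the rise is built into the measure. Of regions whose highest score was 25 or more, 50 of 51 at these genes were in all 4 libraries (98.0%), compared with 97.7% of all such regions. The exception lay at the lower end of Axl, with scores of 14, 28 and 9 at 25000, 50000 and 75000 cells and no peak at 100000 cells. From 15 to 24 the share was 13 of 19 (68.4%), compared with 57.2%, and from 10 to 14 it was 5 of 30 (16.7%), compared with 9.35%. At 8 or 9 it was 0 of 17, compared with 0.205%. Here a count of 0 was taken to allow up to 3, a share of 17.6%, which is not a Clopper-Pearson limit. Regions with a highest score of 25 or more made up 43.6% of the regions at these genes and 31.2% of all regions.

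The number of peaks in the 10 windows was 104, 107, 98 and 107 from 25000 to 100000 cells, with median scores of 15, 17, 19 and 17 in lists whose medians were 15, 16, 15 and 16. The 25000-cell library was the single missing library for 2 of the regions found in 3 libraries, as were the 50000-cell and 100000-cell libraries, and the 75000-cell library was missing for 6. Over all regions of the genome these counts were 2951, 1363, 2034 and 1068 from 25000 to 100000 cells, so that the library most often missing was another one, that of 25000 cells. Regions of a single library numbered 6, 7, 6 and 4 in the same order, compared with 2521, 4146, 3215 and 4725 over the genome. None of those at the 10 genes had a score above 11, and among the far more numerous ones of the genome the highest were 25, 28, 21 and 25. Their median scores were 8, 8, 9.5 and 9 at the 10 genes and 9 in each library over the genome. The 10 regions with their centre within 1 kb of a start, all in all 4 libraries, are the start regions already counted above. The numbers in all 4 libraries were 12 of 24 from 1 to 10 kb, 28 of 58 from 10 to 50 kb and 18 of 25 farther away. Shares by distance over all genes are not given here.

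Among the target genes with secreted products, Ccn1 spans chr3:145646971-145649985 on the minus strand. Its start region at chr3:145649051-145650300 scored 58, 54, 46 and 57 from 25000 to 100000 cells, with percentiles of 96.0, 91.9, 90.1 and 92.9. It was high in every list. The non-coding gene Gm17501 starts 92 bp from the start of Ccn1, and a peak here cannot be told apart between them. The 25000-cell and 50000-cell lists also gave a second peak toward the gene body, with scores of 27 and 23.

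Ccn1 is a short gene of 3.02 kb, and 12 of its 14 regions lay outside it. Those found in all 4 libraries with scores of 35 or more were at 16.9 kb (35, 48, 45 and 51), at the listed start of the non-coding gene Gm40164, at -3.47 kb (36, 51, 38 and 46), inside Gm17501, and at -35.2 kb (35, 56, 39 and 44), between genes. A further 3 regions in all 4 libraries had lower scores, at 31.5 kb (29, 28, 29 and 17), at 8.96 kb (19, 28, 32 and 26) and at -7.09 kb (30, 22, 16 and 20). The highest score among its regions of a single library was 10, at 22.0 kb in the 100000-cell list. The window thus contained accessible regions on both sides of the gene.

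Ccn2, a paralog of Ccn1 with a gene of 3.24 kb at chr10:24595442-24598683, had its strongest region at chr10:24595101-24596200, over its lower annotated end. It scored 55, 56, 50 and 56, with percentiles of 95.2, 92.6, 91.9 and 92.6. Its percentiles spanned a narrower range than those of the start regions of Ccn1 and Amotl2, and a wider one than those of Ankrd1 and Ptpn14. The listed start of the non-coding gene Gm15270 is 361 bp from this end. At the upper end of Ccn2 a weak region at chr10:24599401-24600250 was found in the 75000-cell and 100000-cell lists, with scores of 9 and 8.

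Away from the gene, regions between genes were found in all 4 libraries 33.8 kb above the lower end of Ccn2 (33, 65, 41 and 51) and 40.8 kb above it (27, 48, 40 and 48), toward the phosphodiesterase gene Enpp1. On the other side, a region at -14.2 kb inside Gm15270 scored 27, 32, 41 and 27. Of the 10 regions of its window, 5 were in all 4 libraries. The region of a single library was at 29.9 kb, with a score of 8 at 75000 cells.

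Ankrd1, at chr19:36111965-36119844 on the minus strand, had the highest start region of the 10 genes. The region at chr19:36119551-36120500 scored 67, 96, 116 and 106, with percentiles of 97.6, 98.7, 99.6 and 99.1, and it covers both matches to the TEAD letters printed above. Its scores at 50000, 75000 and 100000 cells were the highest of all peaks in the 10 windows in those lists. A second region with high scores lay at -9.71 kb, at chr19:36129001-36130100, with 55, 75, 55 and 91, between genes. Of the 10 regions in the window of Ankrd1, 3 were in all 4 libraries, the other at the start of the ribonuclease P subunit gene Rpp30 (18, 25, 34 and 35). Its 4 regions of a single library scored 8 to 10, the highest at -13.3 kb at 75000 cells.

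Axl encodes a receptor tyrosine kinase that binds the ligand GAS6, and spans chr7:25756500-25788924 on the minus strand. Its start region at chr7:25788301-25789000 scored 20, 26, 19 and 24, with percentiles of 64.98, 71.3, 60.1 and 67.7, below the 5 genes with high starts in every list. Inside the gene, a region at 6.78 kb, chr7:25781351-25782550, scored 42, 45, 38 and 47, above the start region in each list. Another at 4.76 kb scored 15, 17, 14 and 21.

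The window of Axl had the most regions, 18, of which 10 were in all 4 libraries. The highest lay 76.8 kb downstream, inside Ccdc97, with 57, 85, 56 and 91. A region at the listed start of Hnrnpul1, just past the far end of Axl, scored 25, 60, 51 and 48. On the upstream side, regions in and at the start of the cytochrome P450 gene Cyp2s1 scored 30, 22, 29 and 32 at -26.1 kb and 17, 27, 22 and 33 at -28.0 kb, and a region between genes at -43.3 kb scored 31, 15, 17 and 31. Of its 5 regions of a single library, those with the highest score, 11, were at -10.7 and -23.6 kb at 50000 cells.

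Amotl1 and Amotl2 encode angiomotin-like proteins of cell junctions and the actin cytoskeleton that bind YAP and TAZ. Amotl2, at chr9:102717091-102733418 on the plus strand, had a start region at chr9:102717151-102718650 with scores of 55, 60, 77 and 54 and percentiles of 95.2, 93.7, 97.7 and 91.9. With 1500 bp it was the widest of all regions in the 10 windows, and each list gave at least 1 more peak downstream of the highest one, with scores of 25, 34 and 11 at 25000, 50000 and 75000 cells and a pair of peaks scoring 9 at 100000 cells. The TEAD letters printed above lie under the highest peak in every list.

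Inside Amotl2, a region at 8.57 kb was found in all 4 libraries with scores of 29, 45, 42 and 33, and one at 6.37 kb with 12, 11, 15 and 28. Just past its end, a region of 1400 bp at 16.7 kb scored 16, 35, 25 and 43. Farther downstream there were 4 regions in all 4 libraries between 45.9 and 61.9 kb, with scores of 34, 23, 43 and 28 at the nearest and 36, 34, 29 and 38 at the farthest. No region of its window lay at the listed start of another gene. Its 2 regions of a single library, at 19.8 kb at 25000 cells and at 49.1 kb at 100000 cells, scored 8.

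Amotl1 is a gene of 121 kb at chr9:14541966-14662974 on the minus strand, with its listed start at 14615000. The start region at chr9:14614501-14615200 scored 12, 18, 12 and 16, with percentiles of 37.3, 56.1, 36.4 and 49.9, low in each list next to those of its paralog Amotl2. Inside the gene, regions at 18.4 kb (23, 38, 30 and 34) and at 10.5 kb (25, 23, 17 and 18) scored above the start region in each list. Those at 26.2 kb (23, 14, 27 and 20) and at 55.4 kb (20, 17, 27 and 18) did so except at 50000 cells, and one at 46.4 kb (14, 9, 10 and 13) was below it except at 25000 cells. The highest region of its window was at chr9:14676051-14676900, -61.5 kb from the listed start and beyond the annotated extent, between genes, with 36, 28, 57 and 48. Amotl1 was the single gene of the 10 with no region of a single library.

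Ptpn14 encodes a phosphatase that binds YAP, and at 148.5 kb is the longest of the 10 genes, at chr1:189728216-189876695 on the plus strand. Its start region at chr1:189727201-189728500 scored 80, 92, 67 and 99, with percentiles of 98.8, 98.4, 96.4 and 98.9. Each list also gave a second, upstream peak, with scores of 14, 33, 31 and 26. The highest region of its window by mean percentile, 98.5, lay at the start of Cenpf, a kinetochore protein gene, with scores of 86, 88, 82 and 93. Between that and the start region, 98.1, the order of scores changed with the library.

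Within Ptpn14, 6 regions away from its start were in all 4 libraries. One near its far end, at 139.6 kb, scored 30, 48, 45 and 51, and one at 33.4 kb scored 36, 24, 37 and 31. A region at 50.2 kb, which is the listed start of the non-coding gene Gm51739 inside Ptpn14, scored 42, 40 and 45 from 50000 cells up and 12 at 25000 cells. The start of the methyltransferase gene Smyd2 was at 193.9 kb (29, 44, 34 and 54). Of its 5 regions of a single library, the highest score was 11, at -27.1 kb at 100000 cells.

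Ajuba encodes a LIM domain protein that binds LATS kinases and holds them at cell junctions, and spans chr14:54567469-54577661 on the minus strand. Its start region at chr14:54577301-54578100 scored 15, 12, 16 and 12, with percentiles of 50.5, 34.8, 51.8 and 34.6. It had the lowest mean percentile of the 10, and its promoter window contains 2 matches to the TEAD letters. A link between such matches and the score was not tested. Over all protein-coding genes the letters were in 11.4% of windows with a start peak in all 4 libraries and 15.3% of those without. These 2 sets also differed in base composition, with a median GC content of 62.3% and 50.7%, which was not taken into account. Inside the gene, a region at 4.64 kb, chr14:54572651-54573400, scored 25, 23, 26 and 18, above the start region in each list, and one at 1.91 kb scored 18, 14, 14 and 12. The highest region of the window was that at the start of Prmt5, an arginine methyltransferase gene, with 66, 62, 71 and 75. The region of a single library with the highest score, 10, was at 49.0 kb at 75000 cells.

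Lats1 and Lats2 encode the kinases that phosphorylate YAP and TAZ. Lats1 spans chr10:7681200-7716461 on the plus strand, and its start lies 51 bp from the listed start of Pcmt1, a protein methyltransferase gene, so that both share a region. This region, at chr10:7680701-7682150, scored 14, 10, 25 and 23, with percentiles of 46.6, 23.1, 71.6 and 66.0. The scores of 25 and 23 at 75000 and 100000 cells belonged to a separate peak inside the gene, at chr10:7681551-7682150 in the 75000-cell list, which the 25000-cell list did not have. The peaks closest to the start scored 14, 10, 17 and 13, a narrower range, and differences between the libraries have no replicate check. No other region lay inside Lats1. The highest of its window was at 44.7 kb, inside the katanin subunit gene Katna1, with 32, 59, 46 and 50. The region of a single library scored 11, at -7.36 kb at 75000 cells.

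Lats2 spans chr14:57689662-57746212 on the minus strand, and its start region at chr14:57745751-57746650 scored 11, 12, 18 and 28, with percentiles of 31.3, 34.8, 57.7 and 73.4. It had the widest range of percentiles after Lats1, with its highest value at 100000 cells. No library had a peak within 1 kb of its second listed start, 57734418, and the nearest region lay at 16.1 kb from the first start with scores of 18, 13, 12 and 12. A region between genes at -14.5 kb scored 10, 17, 22 and 17. With 5 regions in 156.6 kb, the window of Lats2 was the sparsest of the 10. Its region of a single library scored 9, at -10.2 kb at 25000 cells.

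Other genes of the pathway were taken from 3 lists and counted in the same way. A start was listed for 15 of 19 upstream and core, 5 of 7 co-activator and factor and 13 of 19 other target genes. The rest, among them Stk3, Map4k4, Tead4, Nuak2 and Ccdc80, were judged by a peak at either annotated end. Of 19 upstream and core genes, 15 had a start peak in all 4 libraries, compared with 44.9% of protein-coding genes, 1 had one in some libraries and 3 in none. The highest were Nf2, which encodes the junctional protein merlin (95, 127, 77 and 111), the kinase gene Stk3 (79, 104, 90 and 105), the kinase gene Taok2 (48, 87, 52 and 58) and Wwc2, a gene of the KIBRA family (41, 73, 60 and 56). Fat1 and Fat4, genes of giant cadherins, and Amot, the angiomotin gene, had no start peak in any library, although Fat1 had 6 or 7 peaks and Amot 2 to 4 inside the gene. Map4k4 had peaks from 50000 cells up (33, 24 and 25).

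Of 7 co-activator and TEAD factor genes, 6 had a start peak in all 4 libraries, compared with the same 44.9%. Wwtr1, the TAZ gene, scored 67, 78, 65 and 89, Tead4 56, 43, 41 and 76, Yap1 23, 34, 28 and 42 and Vgll4, which encodes a protein that competes with YAP for TEAD, 25, 37, 27 and 29. Tead2 had peaks from 50000 cells up (14, 10 and 16). Of 19 other YAP and TAZ target genes, 16 had a start peak in all 4 libraries, again compared with 44.9%, and 3, Ccdc80, Rbms3 and Fstl1, had none. Each library nevertheless had peaks inside these genes, 2 in Ccdc80, 4 to 7 in Rbms3 and 2 to 3 in Fstl1. Among the highest were the stress response gene Gadd45a (88, 97, 86 and 68), the kinase gene Nuak2 (26, 37, 52 and 52) and F3, the tissue factor gene (31, 47, 29 and 41). The median mean percentile of start regions was 79.4 for the 10 genes, 84.5 for the upstream and core genes, 77.4 for the co-activator and factor genes and 65.1 for the other target genes, compared with 79.2 for all protein-coding genes with such a region. The lists were not tested against each other.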

How the data were processed

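Peak lists from ATAC-seq of 4 NMuMG libraries were used. The authors deposited 1 list per library, each peak with a whole-number score whose formula is not given in the sources used here; nor are the peak caller, its threshold, any Tn5 shift or any thinning of reads. The submitters' processing notes name mm10 and hg19, of which mm10 was taken for mouse, and the tools bedtools 2.17.0, Picard 1.107, Bowtie 0.12.8, SAMtools and cutadapt. Scores start at 8, so weaker signal is unlisted, and depth is unknown.

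Peaks overlapping by at least 1 bp were merged over the 4 lists. Gene positions and promoters came from RefSeq tables (GRCm38.p6). A gene's start is any listed start (17492 of 21900 protein-coding genes have one), otherwise either annotated end, and a start peak overlaps the 1 kb to either side. Exons and introns were not separated. Overlap functions were tested on simulated data. Python 3.11.15, pandas 2.3.3, NumPy 2.4.6, SciPy 1.17.1 and matplotlib 3.10.9 were used.

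The genes and lists were chosen with earlier results of these data known. All 10 genes are named. From each other list, up to 4 genes with start peaks in every library, ranked by percentile, and up to 5 without any were named, except 1 gene that is not reported here; Map4k4 and Tead2, and the motif genes, were added after their values were seen. For each of the 10 genes, the start region, the highest region of the window and the highest-scoring region of a single library are described; other regions were chosen after their values were seen. Alternatives were other overlaps, widths, score minimums and windows, and leaving out each library.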

Additional observations from a re-analysis of the deposited data

How the results depend on the processing

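The values under 39 combinations of result and setting were compared with those of the processing described above, and 28 kept within the bounds used. Counts were held to a factor of 1.5, the number of regions per 100 kb to the 95% Poisson interval of 117 regions (0.827 to 1.198 times), and the median over the 10 genes of the highest percentile in the window to its SD over the libraries. With peaks below the median score of their list removed there were 42 regions in all 4 libraries in place of 68, out of 70 in place of 117. The share was 60.0%, compared with 49.95% of all regions under that setting. There were 4.43 regions per 100 kb in place of 8.27. A start peak in all 4 libraries was found for 6 of the 10 genes in place of 10, and for 23 of the 45 other pathway genes in place of 37. Under that setting 33.9% of protein-coding genes had such a peak. With 10 kb to each side there were 38 regions in all 4 libraries, 10.7 per 100 kb and a median highest percentile of 91.0, in place of 93.9. With 50 kb to each side this median was 86.8 over protein-coding genes with a region in the window. It was 90.9 over those with a start peak in all 4 libraries. Medians over all genes are given for that window only. With 100 kb there were 6.04 regions per 100 kb. Within the gene body there were 29 regions in all 4 libraries, 18.9 per 100 kb and a median of 90.4. Leaving out each library in turn gave 70 to 74 regions found in all 3 others, 7.35 to 8.27 regions per 100 kb, 10 genes with a start peak each time and medians of 93.4 to 94.4. Using either annotated end in place of the listed start, chosen after seeing the data, gave 9 of the 10 genes, without Amotl1, and 34 of the other 45. By that definition 43.9% of protein-coding genes had a start peak in all 4 libraries. No paired analysis was possible because each cell number has 1 library. The lists carry no read counts, so depth cannot be set against the number of peaks, and a region missing from a list was not tested for signal below the score of 8.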
